A study of Ovis aries with 18 samples.

Results

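Among the transcripts of lamb skeletal muscle, 3 genes stood among the abundant ones of the loin and were close to absent from a leg muscle. They are ENSOARG00020018635, ENSOARG00020018538 and ENSOARG00020016724, taken from 20477 genes in the deposited table. They were chosen by their measured levels: high in both loin muscles of the study and very low in the leg muscle. The loin muscles were longissimus lumborum (LL), the long muscle of the back, and psoas major, the tenderloin (PM); the leg muscle was the postural soleus (SOL). The study took 6 samples of each muscle from the left side of lamb carcasses, 18 libraries in all. The labels name no treatment, genotype, breed or age, and they do not tie a replicate number to a carcass. Where the numbers do not identify animals, the p-values below measure only the spread between these libraries.

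Skeletal muscle is built of slow and fast fibres, which make different versions of many contractile, calcium-handling and metabolic proteins. Postural muscles such as the soleus are known to hold mostly slow fibres, whereas loin muscles mix slow and fast ones. Bulk RNA levels of fibre-specific genes therefore differ widely between muscles. The deposited table pairs no identifier with a gene name, and 0 of its identifiers appeared in the RefSeq gene table used here. So no function is given for the 3 genes, the muscle labels were not checked against marker genes, and no sequence is printed. In bulk tissue, fewer cells of a type and less RNA per cell cannot be told apart.

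Levels are given in FPKM, that is reads divided by the gene's length in kilobases and scaled to 1000000 counted reads in the library, so that genes can be compared per length. The FPKM steps returned whole reads, gene lengths and library totals. The recovered lengths were 5935 bp for ENSOARG00020018635, 6051 bp for ENSOARG00020018538 and 3541 bp for ENSOARG00020016724. Library totals ran from 10216739 to 12839575 reads in LL, from 11124192 to 13747139 in PM and from 11924862 to 14747118 in SOL. LL libraries held reads of 12704 to 14552 genes, fewer than the 14647 to 14942 of PM libraries, and whether this plays a part in the differences between LL and PM below was not tested. SOL 3 stood apart from the other soleus libraries for all 3 genes, so the soleus values are given with and without it.

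ENSOARG00020018635 was the most abundant of the 3. In LL it ran from 5372 FPKM in LL 2 to 7649 in LL 6, with a median of 5908 and a mean of 6241 ± 905 (SD, n = 6). In PM it ran from 4175 FPKM in PM 2 to 7092 in PM 5, with a median of 5807 and a mean of 5795 ± 1041 (SD, n = 6). The LL and PM ranges overlapped over most of their width. The gene ranked between 8th and 11th of all genes by FPKM in each of these 12 libraries. It alone took 3.19% to 4.54% of the counted reads of an LL library and 2.48% to 4.21% of those of a PM library.

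ENSOARG00020018538 came next. In LL it ran from 1594 FPKM in LL 3 to 3043 in LL 1, with a median of 2329 and a mean of 2266 ± 576 (SD, n = 6). In PM it ran from 1898 FPKM in PM 6 to 3313 in PM 1, with a median of 2028 and a mean of 2273 ± 540 (SD, n = 6). The 2 muscles thus had nearly the same mean, and PM 1 lay above the highest LL library. The match of means rested on PM 1, since without it the PM mean was 2065 ± 201 FPKM (SD, n = 5). The gene ranked 19th to 37th in LL libraries and 16th to 29th in PM libraries.

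ENSOARG00020016724 was the least abundant of the 3 and the one whose LL and PM libraries separated. In LL it ran from 1450 FPKM in LL 1 to 1929 in LL 4, with a median of 1812 and a mean of 1766 ± 177 (SD, n = 6). In PM it ran from 338 FPKM in PM 1 to 1096 in PM 4, with a median of 889 and a mean of 806 ± 282 (SD, n = 6). Every PM library lay below every LL library. Its rank by FPKM was 28th to 35th in LL libraries and 58th to 164th in PM libraries.

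Within both loin muscles the mean levels per length had the order ENSOARG00020018635, ENSOARG00020018538, ENSOARG00020016724. The first stood clear: its lowest LL or PM library, at 4175 FPKM, lay above the highest library of ENSOARG00020018538, at 3313. The next pair did not separate in LL, where LL 2 and LL 3 held more ENSOARG00020016724 than ENSOARG00020018538. In PM they did separate, with ENSOARG00020018538 at no less than 1898 FPKM and ENSOARG00020016724 at no more than 1096. Together the 3 genes took 4.87% to 6.67% of the reads of an LL library and 3.88% to 5.79% of the reads of a PM library.

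**Figure D1:**
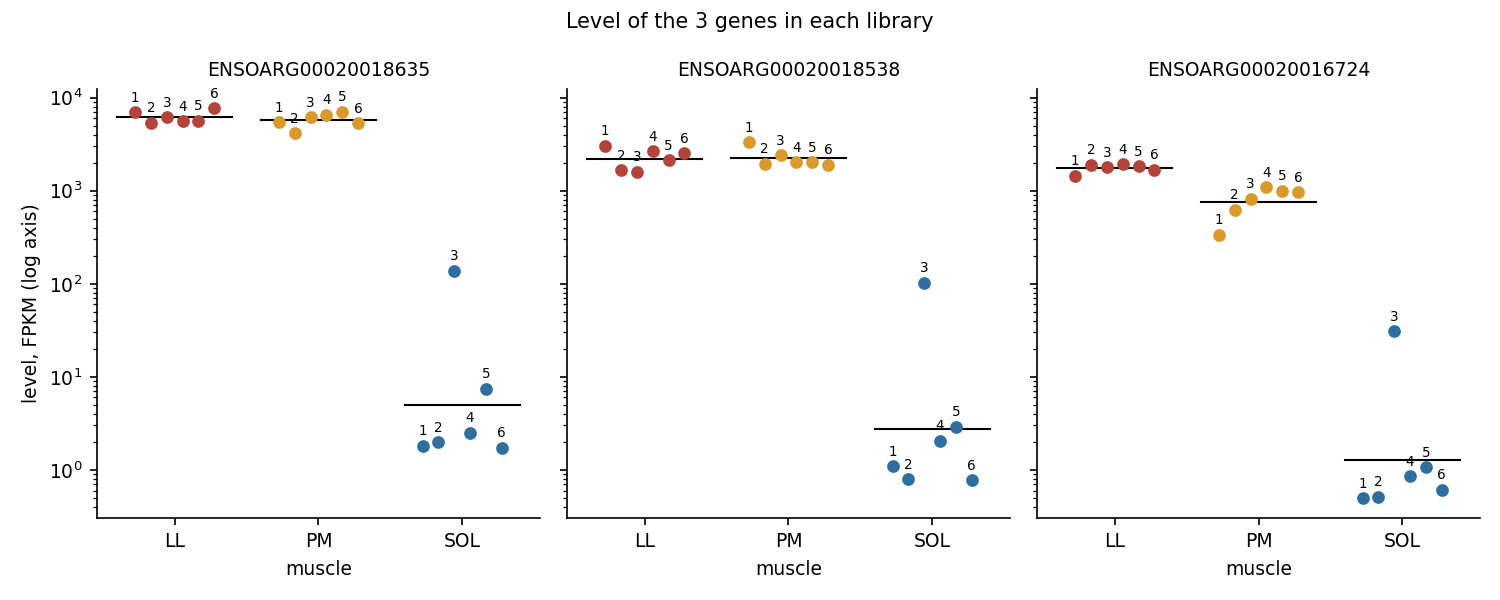
Level of each gene in FPKM (log axis) in every library, grouped by muscle (SOL, soleus; PM, psoas major; LL, longissimus lumborum); points carry the replicate number and lines are geometric means of 6 libraries. ENSOARG00020016724 is lower in every PM library than in every LL library, and SOL 3 lies above the other 5 SOL libraries for all 3 genes.

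In soleus all 3 genes were at a small fraction of their loin level. This is the pattern they were chosen for, so it is given as a description with no test. ENSOARG00020018635 ran from 1.73 FPKM in SOL 6 to 139 in SOL 3, with a median of 2.25 and a mean of 25.7 ± 55.5 (SD, n = 6). Without SOL 3 its mean was 3.10 ± 2.46 FPKM (SD, n = 5), which is 0.0497% of the LL mean and 0.0536% of the PM mean. The mean of LL was thus 243 times that of SOL with all libraries and 2010 times without SOL 3.

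ENSOARG00020018538 ran in soleus from 0.778 FPKM in SOL 6 to 103 in SOL 3, with a median of 1.57 and a mean of 18.4 ± 41.3 (SD, n = 6). Without SOL 3 its mean was 1.52 ± 0.929 FPKM (SD, n = 5), which is 0.0672% of the LL mean. The mean of LL was 123 times that of SOL with all libraries and 1487 times without SOL 3. ENSOARG00020016724 ran from 0.494 FPKM in SOL 1 to 31.1 in SOL 3, with a median of 0.732 and a mean of 5.77 ± 12.4 (SD, n = 6). Without SOL 3 its mean was 0.709 ± 0.248 FPKM (SD, n = 5), or 0.0401% of the LL mean and 0.0879% of the PM mean. The mean of LL was 306 times that of SOL with all libraries and 2493 times without SOL 3, and the mean of PM was 140 and 1138 times that of SOL.

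Low as they were, the soleus values rested on reads in every library. Outside SOL 3 they came from 133 to 654 reads of ENSOARG00020018635, 61 to 259 reads of ENSOARG00020018538 and 22 to 56 reads of ENSOARG00020016724. The thinnest value, ENSOARG00020016724 in SOL 1, came from 22 reads, with an exact 95% Poisson interval of 0.310 to 0.749 FPKM that covers counting error only. All 3 genes thus had reads in all 6 soleus libraries. Whether all of these reads came from soleus RNA of the 3 genes was not tested. The ranks of the 3 genes among all genes fell to between 7313th and 13836th in the 5 libraries other than SOL 3.

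SOL 3 held 11260 reads of ENSOARG00020018635, 8482 of ENSOARG00020018538 and 1503 of ENSOARG00020016724. These levels were 18.6, 35.3 and 29.0 times those of the next highest soleus library, which was SOL 5 for each gene. They amounted to 2.22%, 4.53% and 1.76% of the LL means and to 2.40%, 4.51% and 3.85% of the PM means. Even SOL 3 thus lay far below every LL and PM library. For ENSOARG00020016724, SOL 3 held 31.1 FPKM against 338 in PM 1, the lowest PM library. All 3 genes had every soleus library below every LL and every PM library, as had 4.16% of tested genes against LL and 3.78% against PM. Nothing is read from that count, which the choice of genes fixes.

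Among abundant genes so low a soleus level was rare. The 3 genes were chosen for it, so their places below follow from the choice and are only a description. Of 580 genes averaging 100 FPKM or more in both LL and PM, 8 had a soleus mean under 1% of both, the 3 genes among them. Without SOL 3 the number was 11, all of the 8 included. The median soleus mean of the 580 genes was 89.2% of that in LL and 93.2% of that in PM. By soleus level as a share of LL, ENSOARG00020016724 was 2nd lowest of the 580, ENSOARG00020018635 4th and ENSOARG00020018538 10th. By the share of PM, ENSOARG00020018635 was the lowest, ENSOARG00020016724 6th and ENSOARG00020018538 8th. Without SOL 3 the places by the share of LL were 2nd for ENSOARG00020016724, 3rd for ENSOARG00020018635 and 5th for ENSOARG00020018538. By the share of PM the 3 genes then held the lowest places, ENSOARG00020018635 first, ENSOARG00020018538 2nd and ENSOARG00020016724 3rd.

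**Figure D2:**
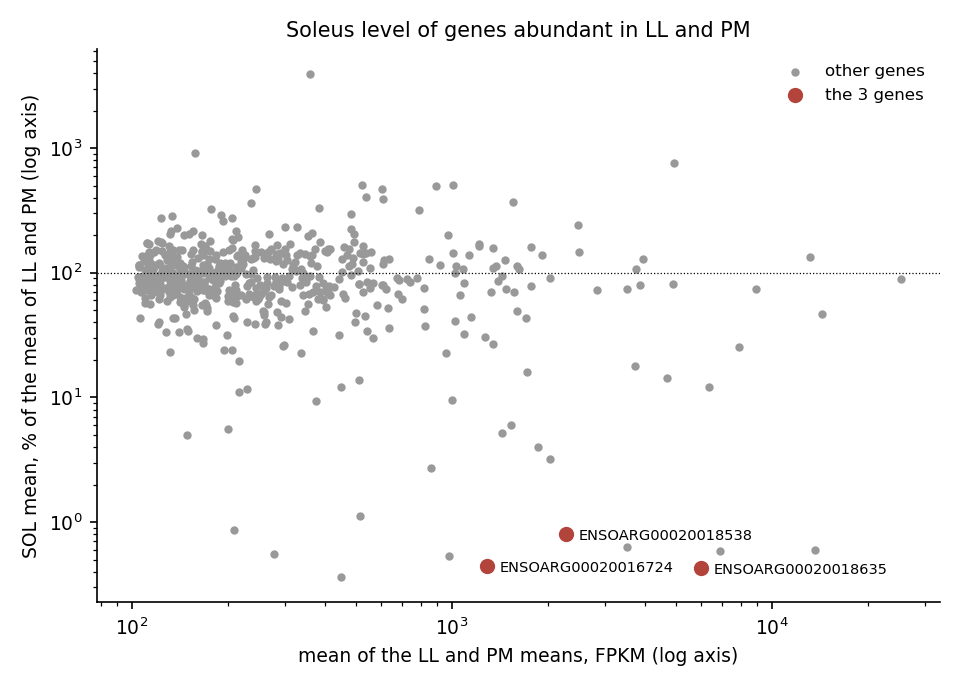
Soleus mean as a percent of the mean of LL and PM against that mean in FPKM (both log axes) for the 580 genes with at least 100 FPKM in LL and in PM; the dotted line marks an equal level. The 3 genes lie under 1%, with a few other genes at their depth.

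The difference between LL and PM asks whether the loin muscles, which both carry these transcripts, carry them at the same level. Both muscles entered the comparisons with soleus by which the genes were chosen, so these tests share libraries with that choice. ENSOARG00020016724 was lower in PM, at 45.7% of the LL mean, whereas ENSOARG00020018635 stood at 92.9% and ENSOARG00020018538 at 100.3%. In the limma model of all 18 libraries 0 of the 3 genes passed at an adjusted p under 0.05, where 229 of 15434 tested genes did, or 1.48%. At an unadjusted p under 0.05 the count was also 0 of 3, and 1953 of the 15434 tested genes. With a pseudocount of 1 that count was 1 of 3, ENSOARG00020016724, and 1828 of 15434 tested genes. With the main pseudocount of 0.1, ENSOARG00020016724 had a log2 change of -1.22 from LL to PM (SE 0.66, limma adjusted p = 0.46).

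That adjusted p turned on 1 soleus library. The 18-library model takes 1 spread per gene from all muscles, and for ENSOARG00020016724 log2 FPKM had an SD of 0.15 over the LL, 0.63 over the PM and 2.30 over the SOL libraries, or 0.48 over SOL without SOL 3. Without SOL 3 the log2 change was still -1.22 with an SE of 0.23, a 95% interval of -1.71 to -0.74 and a limma adjusted p of 0.0087, where 1.38% of tested genes passed. Leaving out any other soleus library left the adjusted p between 0.46 and 0.49. In the model of the 12 LL and PM libraries alone the adjusted p was 0.029 (SE 0.25), where 0.863% of tested genes passed.

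Outside the model, the groups of ENSOARG00020016724 did not overlap, which held for 0.609% of tested genes in the direction of lower PM. The geometric mean in LL was 2.34 times that in PM, with an exact two-sided permutation p of 0.0022, the smallest that 6 against 6 libraries can give. As an alternative that pairs same-numbered libraries, an exact sign-flip test gave p = 0.031, the smallest that 6 pairs can give. Both p-values are for 1 gene and are not adjusted over genes. Of the 580 abundant genes, 27 (4.66%) were lower in PM without overlap, and 4, this gene included, had a log2 change at or below that of ENSOARG00020016724. The median log2 change of the 580 was -0.059.

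The other two genes were not shown to differ between LL and PM. For ENSOARG00020018635 the log2 change was -0.12, with a 95% interval of -1.60 to 1.37 in the 18-library model (limma adjusted p = 0.97) and of -0.66 to 0.43 without SOL 3. For ENSOARG00020018538 it was 0.016, with intervals of -1.58 to 1.61 (limma adjusted p = 1.00) and of -0.53 to 0.57. None of these intervals shows that the levels of LL and PM are alike. Exact permutation tests gave p = 0.44 for ENSOARG00020018635 and p = 0.95 for ENSOARG00020018538 (two-sided, unadjusted).

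**Figure D3:**
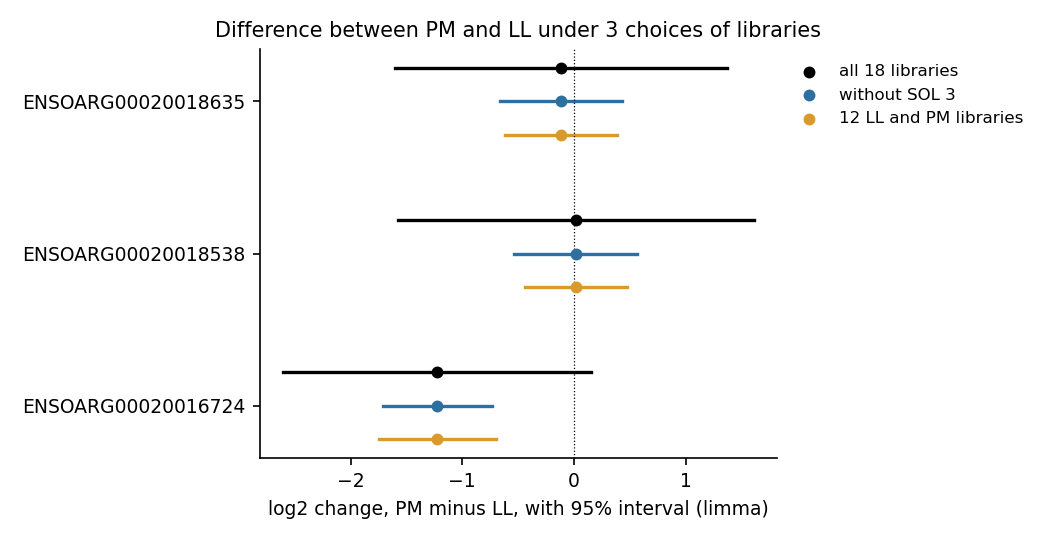
Log2 change from LL to PM with its 95% interval (limma) for each gene, with all 18 libraries, without SOL 3 and with the 12 LL and PM libraries. The point estimates stay in place, and the interval of ENSOARG00020016724 clears 0 once SOL 3 is left out.

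Ratios between the genes within a library do not depend on the library total or on scaling. Both ratios over ENSOARG00020016724 were higher in PM, and 1 of them separated the muscles without overlap. The FPKM ratio of ENSOARG00020018635 to ENSOARG00020016724 ran from 2.82 in LL 2 to 4.83 in LL 1, with a median of 3.26, and in PM from 5.55 in PM 6 to 16.1 in PM 1, with a median of 6.88. Every PM library lay above every LL library. On the log2 scale the PM mean exceeded the LL mean by 1.11 (SE 0.26), a 2.16-fold shift with an exact two-sided permutation p of 0.0022 (0.0065 adjusted over the 3 ratios).

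The ratio of ENSOARG00020018538 to ENSOARG00020016724 ran from 0.870 in LL 2 to 2.10 in LL 1, with a median of 1.27, and in PM from 1.85 in PM 4 to 9.81 in PM 1, with a median of 2.48. LL 1 overlapped the PM range and the other 5 LL libraries did not. The PM mean exceeded the LL mean by 1.24 on the log2 scale (SE 0.42), a 2.36-fold shift with an exact permutation p of 0.0087 (0.013 adjusted over the 3 ratios).

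The ratio of the 2 more abundant genes, ENSOARG00020018635 to ENSOARG00020018538, ran from 2.12 to 3.88 in LL and from 1.64 to 3.50 in PM, with medians of 2.84 and 2.69. These ranges overlapped widely. The difference of -0.13 on the log2 scale (SE 0.21) had an exact permutation p of 0.56, and the same value after adjustment over the 3 ratios. Both ratios that shifted hold ENSOARG00020016724, so they are not independent of each other or of its lower level in PM.

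The soleus ratios are given without a test. ENSOARG00020018635 to ENSOARG00020018538 ran from 1.23 to 2.57 in SOL, with a geometric mean of 1.85 against 2.81 in LL and 2.56 in PM. ENSOARG00020018635 to ENSOARG00020016724 ran from 2.83 to 6.97, with a geometric mean of 3.93 against 3.52 in LL and 7.59 in PM. ENSOARG00020018538 to ENSOARG00020016724 ran from 1.27 to 3.30, with a geometric mean of 2.13 against 1.25 in LL and 2.96 in PM. The order of the 3 genes per length was thus the same in all 6 soleus libraries as in the PM libraries. SOL 3 lay inside the range of the other soleus libraries for the first 2 ratios, at 1.35 and 4.47, and was the highest for the third, at 3.30. Without SOL 3 the geometric means of the 3 ratios were 1.96, 3.84 and 1.95, in the order given above.

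**Figure D4:**
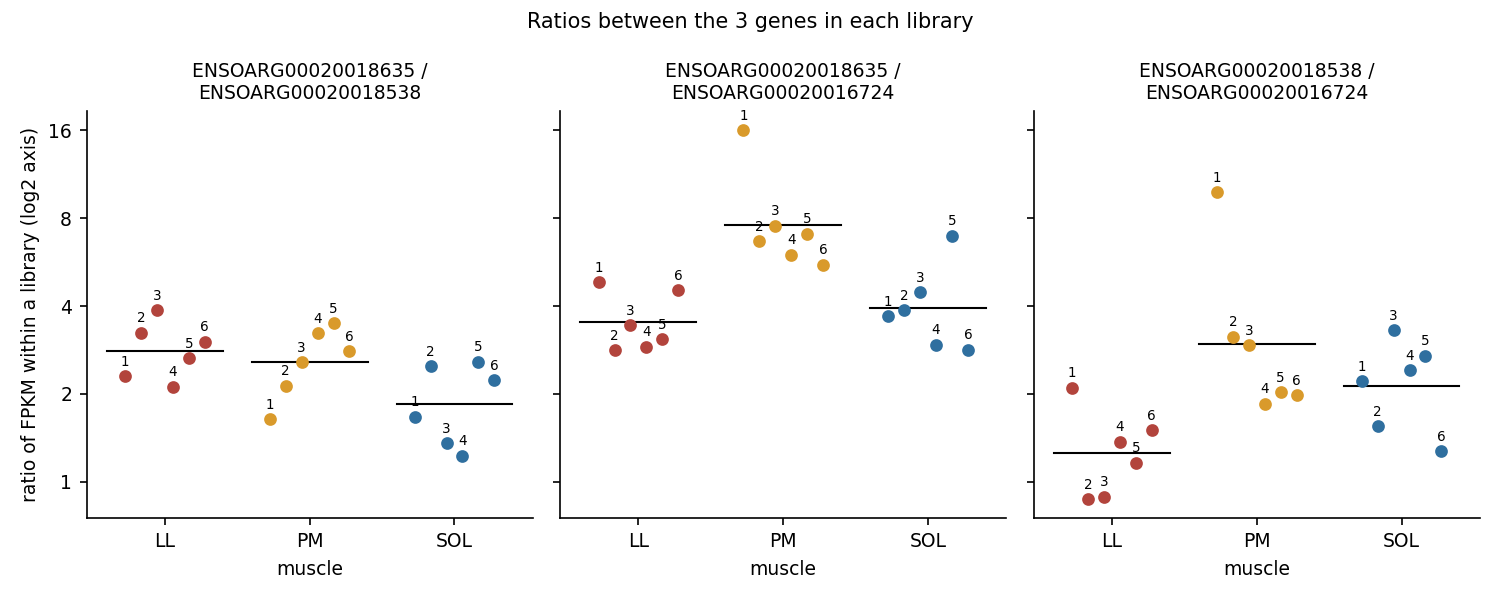
Ratio of FPKM between pairs of the 3 genes within each library (log2 axis); points carry the replicate number and lines are geometric means of 6 libraries. Both ratios over ENSOARG00020016724 are higher in PM than in LL, and PM 1 is the highest library in each.

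The genes differed in how much they varied between libraries of a muscle. ENSOARG00020016724 was steady in LL, with a coefficient of variation of 10.0%, and 524 of the 580 abundant genes had a larger SD of log2 FPKM there. In PM its coefficient of variation was 35.0%, and only 29 of the 580 had a larger SD. Without PM 1 the PM mean was 900.2 ± 183 FPKM (SD, n = 5) and 129 of the 580 had a larger SD. The difference in spread between LL and PM was not tested. ENSOARG00020018635 varied by 14.5% in LL and 18.0% in PM, and ENSOARG00020018538 by 25.4% and 23.8%. For ENSOARG00020018538 the SD of log2 FPKM in PM was 0.30 with PM 1 and 0.13 without it.

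Within a muscle the genes did not clearly rise and fall together. Of 6 relations (3 pairs in LL and in PM, on log2 FPKM) none passed after adjustment. In LL, ENSOARG00020018635 and ENSOARG00020016724 went in opposite directions, with Pearson's r = -0.77 (exact permutation p = 0.058, adjusted 0.18) and Spearman's rho = -0.89 (exact permutation p = 0.033, adjusted 0.20), over n = 6 libraries. Without LL 1 and LL 6, the farthest from the median, r was -0.80. After median-ratio scaling r was smaller, at -0.62 with all LL libraries and -0.31 without LL 1 and LL 6. In PM, ENSOARG00020018538 and ENSOARG00020016724 had r = -0.84 (exact permutation p = 0.058, adjusted 0.18) and rho = -0.31 (exact permutation p = 0.56, adjusted 0.66). This relation rests on few libraries, since without PM 1 and PM 3 r was 0.36. It was also smaller after median-ratio scaling, at r = -0.50. The other 4 relations had r from -0.59 to 0.52 (exact permutation p from 0.20 to 0.96) and rho from -0.26 to 0.66 (exact permutation p from 0.18 to 0.66). FPKM of 1 library share its total, so such relations are not free of each other. No r is given for SOL, where SOL 3 alone would set it.

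Across the 6 replicate numbers, the LL and PM levels of ENSOARG00020016724 had r = 0.76 (exact permutation p = 0.097, adjusted over 3 relations 0.29) and rho = 0.60 (exact permutation p = 0.24, adjusted 0.73). LL 1 and PM 1 were the lowest libraries of their muscles for this gene, and without numbers 1 and 6 r was 0.0069. For ENSOARG00020018538 r was 0.37 and rho 0.26 (exact permutation p = 0.52 and 0.66), and for ENSOARG00020018635 r was -0.084 and rho -0.086 (exact permutation p = 0.89 and 0.92). LL 1 and PM 1 were the highest libraries of their muscles for ENSOARG00020018538.

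The genes most like the 3 over all libraries were ENSOARG00020020158 and ENSOARG00020015460, with a mean Pearson correlation on log2(FPKM + 0.1) of 0.991 each over 18 libraries, the highest of 6523 other genes averaging 10 FPKM or more. These correlations mostly restate low soleus levels, and they are a description with no p. ENSOARG00020020158 averaged 7553 ± 1747 FPKM over LL and 6255 ± 1569 over PM libraries (SD, n = 6 each); soleus held 40.4 ± 71.2 FPKM (SD, n = 6), of which SOL 3 held 186 and the others 5.16 to 15.4. ENSOARG00020015460 averaged 4047 ± 524 FPKM over LL and 2981 ± 824 over PM libraries (SD, n = 6 each); soleus held 22.2 ± 38.0 FPKM (SD, n = 6), of which SOL 3 held 99.6 and the others 2.79 to 10.8. Over the 12 LL and PM libraries alone, ENSOARG00020015460 had r = 0.89 with ENSOARG00020016724, 0.47 with ENSOARG00020018635 and -0.34 with ENSOARG00020018538. ENSOARG00020020158 had r of 0.36, 0.57 and 0.45 with them in the same order. These libraries come from both loin muscles, so such an r does not part the muscle difference from variation within a muscle. ENSOARG00020015460 and ENSOARG00020016724 both had lower means in PM. Among the 3 genes themselves, r was 0.986 to 0.997 over 18 libraries and -0.37 to 0.36 over the 12.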

How the data were processed

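Total RNA of 3 muscles was extracted with TRIzol, depleted of ribosomal RNA and copied with random hexamers, per the labels' protocols. Trimmed reads went through HISAT2 (2.2.1) and then StringTie (2.2.0), per the labels' protocols. Build, annotation, counting and strandedness were not given in the sources used here, so reads shared with near-identical or overlapping genes cannot be told apart. DESeq is listed, with no role, per the submitters' processing notes.

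The table deposited by the authors holds FPKM, with no unit in its header. The unit was found from the values: with 1 whole length per gene and 1 whole total per library, all 14842 genes with values above 0 in at least 8 libraries came within 0.01 of whole reads. Recovered reads summed to at least 99.96% of each total. The planned limma test (3.58.1, R 4.3.3) with the variance trend was fitted to log2(FPKM + 0.1) of 15434 genes averaging 0.1 FPKM or more. It had 1 coefficient per muscle and 15 residual degrees of freedom, and p-values were adjusted over all genes (Benjamini-Hochberg). All 3 genes passed the filter. The limma log2 changes are on the log2(FPKM + 0.1) scale. Soleus folds are ratios of mean FPKM. The folds beside permutation tests come from log2 FPKM or log2 ratios with no pseudocount. Ratios and single genes used exact permutation tests (Python 3.11.15, numpy 2.4.6). Both the recovery and the limma script were tested on simulated data. The 3 genes and the tests were chosen with earlier results of these data known. Named beside them were the 2 genes most alike by mean correlation. Marker lists of fibre and cell types were set up but could not be matched to identifiers. Alternatives were other pseudocounts, filters and scaling, a replicate block, fewer libraries and each library left out; models that left out 1 soleus library or LL 3, SOL 3 and SOL 5 together, soleus counts, ranks and ratios without SOL 3, scaling together with the block, and the permutation tests of single genes were chosen after seeing the data.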

Additional observations from a re-analysis of the deposited data

Results flagged for a closer look

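Dixon's test was applied to the extreme libraries of each muscle, for the 3 levels in FPKM and the 3 ratios, not on the log2 scale. Of 18 sets, 6 held a library far from the others. About 0.9 would be flagged by chance if all values were normally distributed, which was not tested. The soleus levels among these sets also served to choose the genes, so no excess over chance is read from the count. SOL 3 was far above the other soleus libraries for all 3 genes, at 139 FPKM for ENSOARG00020018635, 103 for ENSOARG00020018538 and 31.1 for ENSOARG00020016724. PM 1 was far above the other PM libraries for ENSOARG00020018538, at 3313 FPKM against 2410 or less. PM 1 also stood apart in the ratio of ENSOARG00020018635 to ENSOARG00020016724, at 16.1 against 7.55 or less, and in that of ENSOARG00020018538 to ENSOARG00020016724, at 9.81 against 3.14 or less. The sets share genes and libraries, so these are not 6 separate events.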

How the results depend on the processing

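The shift of both ratios over ENSOARG00020016724 passed the test in each alternative run: with the replicate block (exact sign-flip permutation adjusted p = 0.047 for both), with medians, and without each LL or PM library. Before adjustment the exact sign-flip p was 0.031 for both ratios, the smallest that 6 pairs can give. Leaving out 1 library gave log2 differences of 0.89 to 1.20 for the ratio from ENSOARG00020018635 and 0.89 to 1.39 for that from ENSOARG00020018538, the lowest in both cases without PM 1. The log2 change of ENSOARG00020016724 from LL to PM ran from -1.33 to -0.99 without 1 LL or PM library, never past the threshold (limma adjusted p from 0.44 to 0.66). It passed at -1.22 without SOL 3 and in the 12 LL and PM libraries. So it did without LL 3, SOL 3 and SOL 5 (limma adjusted p = 0.016). Its single-gene permutation p (-1.22) was unadjusted. With the replicate block its limma adjusted p was 0.33. ENSOARG00020018538 had no stable direction: its log2 change ran from -0.10 to 0.11 without 1 library and was -0.078 without LL 3, SOL 3 and SOL 5. That of ENSOARG00020018635 ran from -0.18 to -0.025 without 1 library. The count of genes differing between PM and LL was 415 with the replicate block, 382 with the block and median-ratio scaling, 131 in the 12 libraries, and 138 to 340 without 1 library; the lowest, 138, came without PM 2, with 149 to 150 on leaving out PM 1, PM 4 or PM 6, and the highest without LL 6. The cause was not tested. Same-numbered LL and PM libraries deviated together across genes with r from 0.090 to 0.18, not all above 0.1, against 0.0070 or less for other numbers. For LL with SOL the same-numbered r ran from 0.086 to 0.19 (0.052 or less for other numbers), and for PM with SOL from 0.13 to 0.23, all above 0.1 (0.017 or less for other numbers). The main tests did not take the LL and PM numbers as pairs. The rule of all r above 0.1 was met for PM with SOL but not for LL with PM. Every same-numbered r exceeded every other within each pair of muscles. The labels do not say what same-numbered libraries share, and whether the numbers mark shared animals was not tested. Without the 2 libraries farthest from the median, r turned to -0.31 for ENSOARG00020018635 with ENSOARG00020018538 in LL, -0.28 for the same pair in PM and 0.36 for ENSOARG00020018538 with ENSOARG00020016724 in PM. For ENSOARG00020018635 between LL and PM by number it turned to 0.49. After median-ratio scaling, ENSOARG00020018635 with ENSOARG00020016724 in LL had r = -0.62, and in PM r was -0.50 for ENSOARG00020018538 with ENSOARG00020016724 and 0.30 for ENSOARG00020018635 with ENSOARG00020018538. The soleus mean without 1 library ran from 3.10 to 30.5 FPKM for ENSOARG00020018635, 1.52 to 21.9 for ENSOARG00020018538 and 0.709 to 6.82 for ENSOARG00020016724, the lowest each time without SOL 3.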

Other observations

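The 5 other genes at 100 FPKM or more in LL and PM with a soleus mean under 1% of both also had their highest soleus value in SOL 3. There they stood 6.56 to 14.3 times above the next soleus library, at 1.43% to 2.59% of their LL means. For the 3 genes the same factors were 18.6 for ENSOARG00020018635, 35.3 for ENSOARG00020018538 and 29.0 for ENSOARG00020016724. SOL 5 was the next highest soleus library for each of the 3, and for ENSOARG00020018635 it stood at 7.47 FPKM against 2.52 or less in the other 4.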
